A study of Mus musculus with 6 samples.

Results

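The genes of 3 BET proteins, Brd2, Brd3 and Brdt, were taken by name, and the H3K27ac peaks of control mouse embryonic stem cells (mESCs) were read at each of their transcription start sites (TSSs), in the gene body and within 50 kb on either side. The 3 genes belong to 27706 protein-coding and lincRNA genes compared in the same way. H3K27ac, acetylation of lysine 27 of histone H3, is a mark of active promoters and enhancers and was measured by ChIP-seq, in which antibody-bound chromatin fragments are sequenced. All 6 samples were, per the labels, E14Tg2A mESCs (E14) carrying Rosa26-Cre and Oct4-IRES-Puro, grown in N2B27 medium with LIF, PD0325901 and CT-99021, with 2 replicates of each condition. The conditions were 2 h of DMSO (control), of 100 nM NVP-2, an inhibitor of the elongation kinase CDK9, or of 800 nM actinomycin D (ActD), which binds DNA and blocks RNA polymerases. HEK293T chromatin, from a human cell line, was added to every sample as spike-in. The values given here come from the deposited list of 22973 control peaks, pooled over both control replicates. A peak is a start and an end in base pairs, with no height, so there is no replicate error and no test between conditions, and the treated libraries were not analysed here. Sequencing depth is unknown from such a list.

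BET proteins read histone acetylation. Each carries a pair of bromodomains, pockets that bind acetylated lysine, and an extraterminal domain through which it brings other proteins to chromatin. BRD2 and BRD3 are made in many tissues and take part in transcription, whereas BRDT is the testis member, needed for sperm formation, where it helps to compact chromatin with highly acetylated histones.

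The cell type label was read against marker genes first. Promoters of 6 of 6 embryonic stem cell markers were marked (Pou5f1, Nanog, Sox2, Zfp42, Esrrb and Tdgf1), as were 1 of 6 germ cell markers, Dazl, and 0 of 6 fibroblast markers, where the 95% Wilson interval reaches 39.0%. Here and below a promoter was called marked when a peak overlapped, by at least 1 bp, the window of ±1 kb around any protein-coding or lincRNA isoform TSS.

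The 4 stretches below show the sequence just upstream of the longest-isoform start of each gene and of the downstream starts of Brd3, since the start sites of BET genes differed in their CpG content and in their peaks. Each runs 5′ to 3′ on the strand of the gene, ends at the base before the first annotated transcript of that start site and holds no annotated exon. The Brd2 stretch is shorter because an annotated exon lies next to it. Capitals mark CpG dinucleotides, the sites of DNA methylation that are dense in CpG islands and rare elsewhere. The letters are the C57BL/6J reference (GRCm38, the same build as mm10), taken from the RefSeq genome, and not those of E14, a line derived from strain 129.
Brd2, chr17:34122635-34122821, minus strand: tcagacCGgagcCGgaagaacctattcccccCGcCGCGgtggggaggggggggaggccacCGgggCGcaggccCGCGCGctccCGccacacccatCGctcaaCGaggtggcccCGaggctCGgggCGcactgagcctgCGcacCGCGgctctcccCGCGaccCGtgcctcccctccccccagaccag
Brd3 upstream start site, chr2:27507663-27507862, minus strand: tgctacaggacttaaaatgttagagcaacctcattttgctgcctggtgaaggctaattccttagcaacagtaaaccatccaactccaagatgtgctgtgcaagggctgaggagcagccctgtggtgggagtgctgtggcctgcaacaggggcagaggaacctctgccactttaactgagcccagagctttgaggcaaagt
Brd3 downstream start site, chr2:27475687-27475886, minus strand: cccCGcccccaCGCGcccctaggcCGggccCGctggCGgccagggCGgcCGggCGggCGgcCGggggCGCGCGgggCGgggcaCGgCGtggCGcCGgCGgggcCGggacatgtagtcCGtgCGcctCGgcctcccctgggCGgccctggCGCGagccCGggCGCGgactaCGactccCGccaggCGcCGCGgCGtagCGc
Brdt, chr5:107330959-107331158, plus strand: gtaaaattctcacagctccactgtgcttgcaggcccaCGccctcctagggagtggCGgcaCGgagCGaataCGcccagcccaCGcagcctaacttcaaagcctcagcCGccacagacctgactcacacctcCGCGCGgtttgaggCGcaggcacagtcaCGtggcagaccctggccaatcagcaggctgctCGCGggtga

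The stretch at Brd2 held 22 CpG in 187 bases, and the stretch at the downstream start site of Brd3 held 37 in 200 bases. The stretch at the upstream start site of Brd3 held 0 CpG in 200 bases, and that at Brdt held 14. All bases of the Brd2 stretch and of both Brd3 stretches lay inside H3K27ac peaks, whereas none of the Brdt stretch did.

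Promoters of 2 of the 3 BET genes were marked by H3K27ac, those of Brd2 and Brd3, and that of Brdt was not. Over all genes 43.6% of promoters were marked (12071 of 27706, 95% Wilson interval 43.0 to 44.2%, which covers counting error only). The 3 genes differed widely in the amount of marked chromatin. Brd2 had 1 peak within 50 kb of the gene, Brd3 had 7 and Brdt had 3, while the median gene had 2 (quartiles 0 and 4). These windows grow with the gene, whose span was 10612 bp at Brd2, 62084 bp at Brd3 and 55900 bp at Brdt, and within 50 kb of the longest-isoform TSS the counts were 1, 4 and 1. At least 1 peak within 50 kb was found for all 3, and for 70.9% of all genes. Peaks covered 58.0% of the span of Brd2, 10.4% of that of Brd3 and 0% of that of Brdt. Over all genes 51.7% had no base of their span inside a peak.

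**Figure D1:**
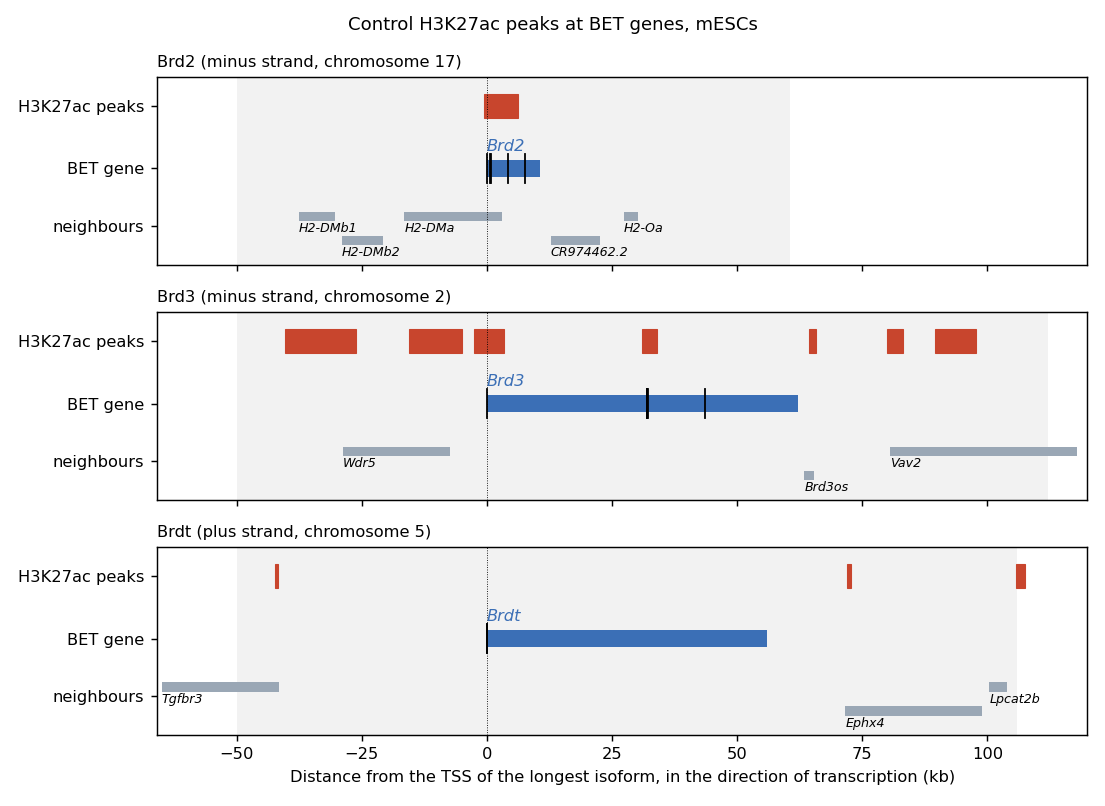
Control H3K27ac peaks (red), the BET gene with its isoform TSSs (blue bar, black ticks) and neighbouring protein-coding and lincRNA genes (grey, cut at the panel edge), against the distance in kb from the TSS of the longest isoform, with the gene and 50 kb on either side shaded. Brd2 has 1 peak over its start, Brd3 has 7 peaks of which 2 lie at its own start sites, and the 3 peaks around Brdt all lie outside the gene.

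Brd2 (ENSMUSG00000024335.20) spans positions 34112023 to 34122634 of chromosome 17, on the minus strand, among genes of the major histocompatibility complex. Its peak of 6797 bp ran from 34116485 to 34123281 and was wider than 83.7% of the 10778 peaks at TSSs, whose median width was 2103 bp (quartiles 1496 and 4664 bp). It started 0.681 kb upstream of the TSS of the longest isoform and reached 6.12 kb downstream, so that 90.0% of it lay on the side of transcription. Among 10391 genes with the TSS inside a peak the median of this share was 58.7%, and Brd2 exceeded 90.2% of them. The peak held exons 1 to 3 of the 13 exons of the longest isoform and ended in intron 3, and exons 4 to 13 lay outside it.

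The protein-coding isoforms of Brd2 start at 5 positions, and 4 of these lay inside the peak, at 0, 0.612, 0.853 and 4.11 kb from the TSS of the longest isoform. The fifth, of a short isoform with 3 exons, lay 7.62 kb downstream and 1.51 kb past the end of the peak. With transcripts of every type counted, 11 start positions of Brd2 were marked.

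The peak of Brd2 was shared with H2-DMa, which encodes a chain of the class II peptide loading molecule H2-DM. The longest H2-DMa isoform starts 232 bp upstream of Brd2 on the opposite strand, inside the peak, so that both genes leave the same marked region in opposite directions. The other protein-coding start sites of H2-DMa, 13.0 and 13.1 kb upstream of Brd2, lay 12.3 and 12.4 kb from the nearest peak. The promoters of H2-DMb1 and H2-DMb2, which encode the other chain of H2-DM, of H2-Oa, a subunit of a related molecule, and of the lincRNA CR974462.2 were not marked, with the nearest peak 16.6 to 29.8 kb from their TSSs. The Brd2 peak was thus the only one in a window that reached 50 kb past both ends of the gene, and of the 100 kb around its TSS 6.80% lay inside a peak. The median over all genes was 2.86% and that over marked genes 8.78%.

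Brd3 (ENSMUSG00000026918.16) spans positions 27445579 to 27507662 of chromosome 2, also on the minus strand, and had separate peaks at 2 groups of start sites. The upstream peak, of 6077 bp from 27504233 to 27510309, held the TSS of the longest isoform and its exon 1. This TSS is the start of 1 of the 10 annotated transcripts of Brd3, and the values below that are centred on the longest isoform rest on it. The downstream peak, of 3006 bp from 27473759 to 27476764, lay 27.5 kb further along the gene, inside the first intron of the longest isoform, and held 5 TSSs between 27475398 and 27475686. A seventh TSS, 43.5 kb from the first, lay 9.64 kb from the nearest peak. With 6 of 7 TSSs inside peaks, Brd3 was 1 of 614 genes, or 2.22% of all genes, with 2 or more separate peaks at their TSSs. Among marked genes the share was 5.09%.

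The start sites of Brd3 differed in sequence. The CpG ratio, the number of CpG found over that expected from the C and G content, was 0.181 within 1 kb of the upstream TSS, below that of most genes (24.7% were lower), with a GC content of 48.4%. At the 5 downstream TSSs it ranged from 0.885 to 0.905, with a GC content of 63.8 to 64.6%, and 97.5 to 98.2% of genes were lower. The CpG-poor start site had the wider peak. Among genes in the same decile of CpG ratio as the upstream TSS (decile 3 of 10), 9.60% of longest-isoform promoters were marked, against 88.5% in decile 10, to which the downstream TSSs belong. Where promoters of decile 3 were marked, their peaks had a median width of 5114 bp, against 2606 bp in decile 10. The Brd3 peaks were near the middle of both, wider than 55.3% and 57.0% of them.

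**Figure D2:**
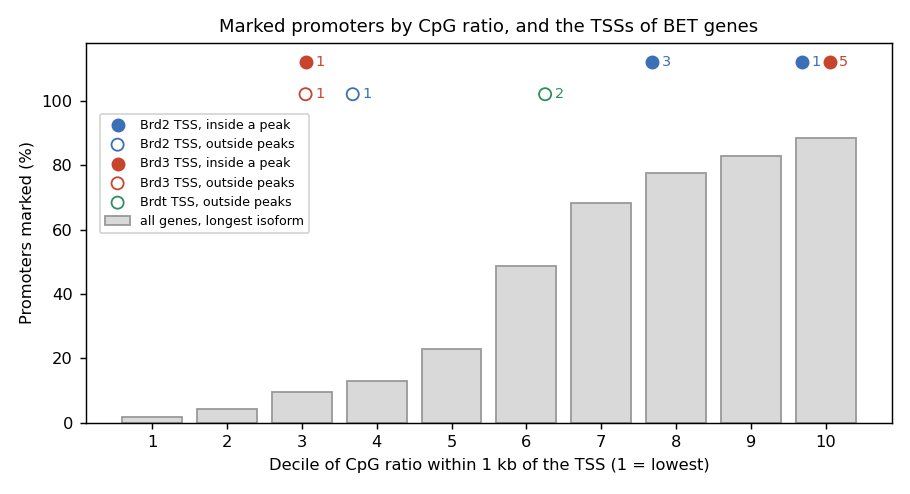
Share of longest-isoform promoters marked by H3K27ac (bars, %) in 10 deciles of all genes by CpG ratio within 1 kb of the TSS, with the TSSs of BET genes at their decile as filled circles (inside a peak) or open circles (outside peaks) and their number beside each. The TSSs inside peaks lie in deciles 3, 8 and 10, and both Brdt TSSs lie in decile 6, where 48.6% of promoters were marked.

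The Brd3 neighbourhood was rich in peaks, and 34.0% of the 100 kb centred on its longest-isoform TSS lay inside a peak, more than for 95.8% of genes. Upstream, a peak of 10702 bp held the promoter of Wdr5, a core subunit of the H3K4 methyltransferase complexes, whose TSS is 7.495 kb from that of Brd3 on the opposite strand. The gap between this peak and the upstream peak of Brd3 was 2293 bp, shorter than all but 2.13% of the 22952 gaps in the list. The authors joined peaks within 2 kb, so the peaks stood just beyond that limit. Joined within 3 kb instead, a distance chosen after the data were seen, they formed 1 peak, and the peaks within 50 kb numbered 6. A further peak of 14254 bp, the widest within 50 kb of any BET gene, lay 26.1 to 40.4 kb upstream and overlapped the end of Wdr5 and the sequence beyond it, with no protein-coding or lincRNA TSS within 1 kb of it.

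Downstream, a peak of 1435 bp lay 2.28 kb past the end of Brd3. It held the TSS of Brd3os, a gene on the opposite strand that the annotation lists as protein-coding. A peak of 3105 bp that lay 17.9 kb past the end held the TSS of Vav2, and a peak of 8315 bp lay in the body of Vav2. The promoters of all 3 neighbours of Brd3 with a TSS within 50 kb of it were therefore marked, against 1 of 5 at Brd2, 2 of 3 at Brdt and 43.6% of all genes.

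**Figure D3:**
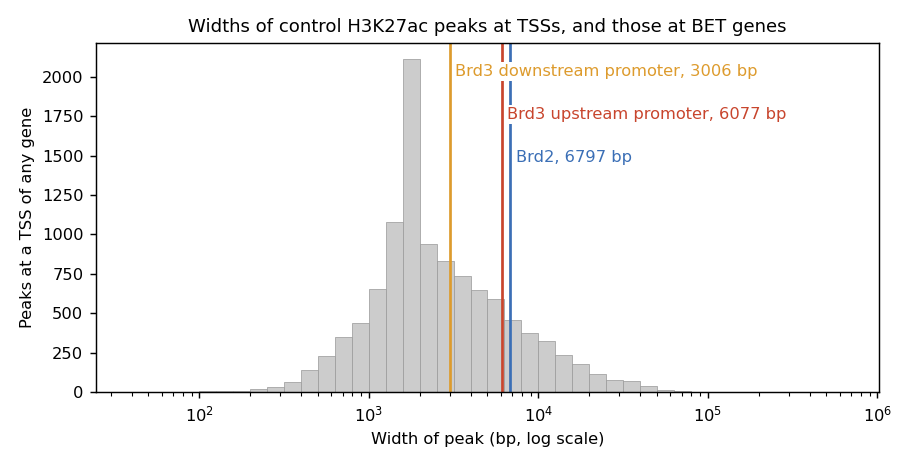
Number of control H3K27ac peaks at a TSS of any of the 27706 genes (grey bars) by width in bp on a log scale, with the peaks at the start sites of Brd2 and Brd3 as lines. The median is 2103 bp, and the 3 peaks, of 3006, 6077 and 6797 bp, lie above it.

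Brdt (ENSMUSG00000029279.15) spans positions 107331159 to 107387058 of chromosome 5, on the plus strand, and no peak touched its 55900 bp. Both protein-coding TSSs, 16 bp apart, were unmarked, and so were the starts of its 2 other transcripts. The gene lay inside a gap of 113.7 kb between peaks, longer than 81.8% of gaps (median 26.7 kb). The nearest peak ended 41.7 kb upstream of the TSS, closer than the median of 69.0 kb over the 15635 genes without a marked promoter (quartiles 21.9 and 222 kb). It was 719 bp wide and lay in the promoter of Tgfbr3, a co-receptor for TGF-beta ligands, on the opposite strand. With peaks under 1 kb left out, the nearest peak was 105.6 kb from the TSS, and the median over genes was not recomputed. The other peaks within 50 kb of the gene lay 16.1 and 49.7 kb past the end of Brdt. The nearer, of 740 bp, was at the promoter of Ephx4, an epoxide hydrolase gene, and the farther, of 1833 bp, was at Btbd8. The promoter of Lpcat2b, between Ephx4 and Btbd8, was not marked, with the nearest peak 5.23 kb away. Of the 100 kb around the Brdt TSS 0.719% lay inside a peak. The list gives only peaks that passed the height and open-chromatin filters of the authors, so a signal below these would not be seen.

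The CpG content of the Brdt promoter was near the middle of all genes. The CpG ratio within 1 kb of the TSS was 0.465 (57.3% of genes were lower), with a GC content of 51.2%, and 83.9% of genes without a marked promoter had a lower ratio. Among genes of the same decile 48.6% (1347 of 2771) were marked at the longest isoform, and 50.2% (1390) at any isoform. In the narrower window from 250 bp before to 50 bp after the TSS the ratio was 0.743. At Brd2 the ratio within 1 kb of the TSS was 0.662, in a decile of which 77.6% were marked at the longest isoform and 78.2% at any isoform.

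Short motifs were counted in the 300 bases from 250 before to 50 after each RefSeq start (GRCm38.p6), on both strands, among 32851 such windows. All 3 genes matched an entry by symbol, and the upstream start of Brd3 was read from the genome sequence in the same way. The motifs were the TATA box (TATAAA), the CCAAT box (CCAAT), the GC box (GGGCGG), the E-box (CACGTG), an E2F core (TCCCGC), the palindromic NRF1 motif and the cAMP response element (TGACGTCA), and no matches overlapped one another. The window at 34122607 of Brd2 held an NRF1 motif from -17 to -8, which 0.971% of all windows hold, and an E2F core, which 20.0% hold. The other RefSeq windows of Brd2, at 34121747 and 34119900, held 1 GC box each and neither of these motifs. The window at the RefSeq downstream start of Brd3, 27475398, which lies further along the gene and does not overlap the stretch printed above, held 2 GC boxes and 1 E2F core, and that at its upstream start held 1 GC box, a motif in 35.7% of windows. The window of Brdt held an E-box from -78 to -73, which 7.15% of windows hold, and a CCAAT box from -61 to -57, which 37.4% hold. Both lie in the stretch printed above. No window of the 3 genes held a TATA box or a cAMP response element, which 13.6% and 1.79% of windows hold. The shares are over windows of every CpG content and were not matched for it. A match is a description of letters and not a bound site.

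Other genes with domains of the kinds that read acetylated lysine, called readers here by domain alone, were mostly marked. Of 43 genes with a bromodomain, a YEATS domain or a double PHD finger, 40 had a marked promoter (93.0%, 95% Wilson interval 81.4 to 97.6%). The median CpG ratio of this list was 0.788, in decile 10, where 88.5% of all longest-isoform promoters were marked. Other readers lay in lower deciles, where smaller shares were marked. The lowest ratio was 0.241 at Sp140, in decile 4, where 13.0% were marked. The decile of the median therefore does not stand for the whole list. Whether the share of readers differed from that of genes with like CpG ratios was not tested. The unmarked ones were Smarca2, a remodeller ATPase, Sp140, a nuclear body protein of immune cells, and Dpf3, a subunit of BAF complexes of muscle and brain. The widest peak at a promoter of this list, 123797 bp, was at Kat6b, a histone acetyltransferase gene, and the median over the 40 genes was 2871.5 bp. The peak of Brd2 was narrower than that of 12 of the 40, and the upstream peak of Brd3 was narrower than that of 13. Like Brd3, 3 genes of the list had separate peaks at their TSSs: Crebbp and Trim66 with 2 each and Zmynd8 with 3.

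Genes of proteins that BET proteins bind or recruit were marked in 7 of 8 cases at any isoform (87.5%, 52.9 to 97.8%) and in 6 at the longest isoform. Their CpG ratios ranged from 0.255 at Ccnt1 to 0.863 at Jmjd6. The median of 0.756 lay in decile 9, where 82.9% of longest-isoform promoters were marked. The 7 marked genes included Ccnt1 and Ccnt2, the cyclins of CDK9, and Hexim1 and Larp7 of the complex that holds CDK9 inactive. The others were the histone methyltransferase gene Nsd3, the hydroxylase gene Jmjd6 and Atad5, whose protein unloads the replication clamp. The promoter of Cdk9 was not marked. Peak widths among the 7 ranged from 2267 bp at Nsd3 to 13597 bp at Ccnt2. Ccnt1 was marked only at a TSS other than that of its longest isoform.

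Genes used mainly in germ cells, the setting in which Brdt is known, were marked in 4 of 16 cases (25%, 10.2 to 49.5%, an interval that includes the 43.6% of all genes). Their CpG ratios ranged from 0.218 at Prm1 to 0.828 at Tssk6. The median of 0.492 lay in decile 6, where 48.6% of longest-isoform promoters were marked. The marked genes were Hist1h1t, a testis variant of histone H1, Tssk6, a spermatid kinase gene, Ccna1, a meiotic cyclin gene, and Dazl, which encodes a germ cell RNA-binding protein. Their peaks measured 5350 bp at Hist1h1t, 3678 bp at Tssk6, 1389 bp at Ccna1 and 1225 bp at Dazl. The unmarked genes included Prm1, Prm2, Tnp1 and Tnp2, which encode the protamines and transition proteins that replace histones in sperm, and the meiotic genes Sycp1 and Sycp3. Among the unmarked genes the distance from the TSS to the nearest peak ranged from 1.74 kb at Tnp2 to 78.2 kb at Mael, and at Brdt it was 41.7 kb. With windows of ±2 kb 6 of the 16 were marked.

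**Figure D4:**
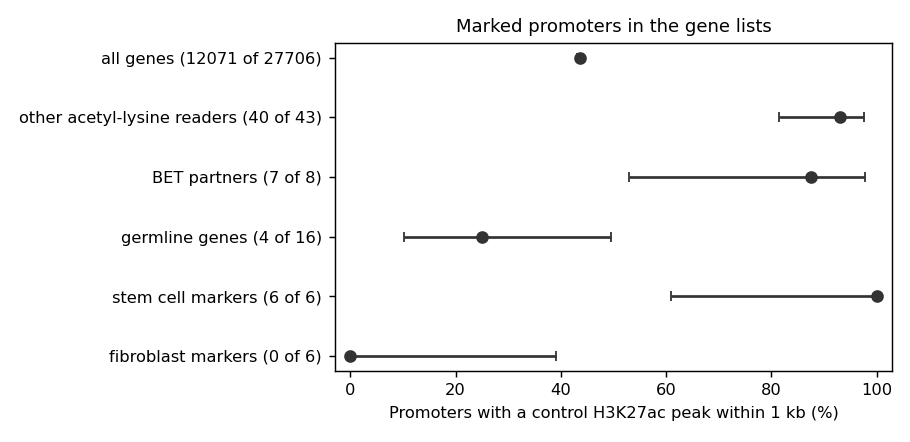
Share of promoters marked by a control H3K27ac peak within 1 kb of a TSS (points, %) with 95% Wilson intervals (bars, counting error only) for all genes, the gene lists and the stem cell and fibroblast markers, with counts in brackets. Other readers (40 of 43) and BET partners (7 of 8) lie above all genes (43.6%). In the deciles of their median CpG ratios 88.5 and 82.9% of longest-isoform promoters were marked, and the lists were not matched by CpG ratio. The interval of the germline genes (4 of 16) includes the share of all genes.

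The layout of peaks within 50 kb of the TSS, read in the direction of transcription, was compared between each marked BET gene and all genes more than 100 kb away, as the bases covered in both over the bases covered in either (Jaccard index, 1 pooled list). Most like Brd2 were Acsl4, the lincRNA 4930433E05Rik and Hjurp, each with an index of 0.96, where the median over all genes was 0. Most like Brd3 were Mospd3 with an index of 0.71, Iqck with 0.65 and Sap25 with 0.64, against a median of 0.034.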

How the data were processed

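H3K27ac ChIP-seq was made in 6 samples, 2 each of control, NVP-2 and ActD. The deposited file gives the start and end of each control peak in mm10, in base pairs, pooled over both control replicates, with no score or count. To make it, the authors removed adapters (Cutadapt), mapped reads to a joint mouse and human reference (bwa meme), discarded duplicates and low mapping qualities (Picard 2.9.1 and SAMtools 1.4, versions per the labels), called peaks with LanceOtron, joined those within 2 kb, and filtered by height and by distance to ATAC-seq summits. Peaks that failed these filters are not seen here.

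Groups were taken from the labels. GENCODE release M21 (GRCm38, the same build) gave 67283 transcripts of the types protein_coding and lincRNA from 27706 genes, and 33 of 33 transcripts of the 3 BET genes matched the genome sequence. Percentiles are the share of all genes or peaks with a lower value. The members, gene lists and rules were chosen with earlier results of these data known. Named genes were the members, genes with a TSS within 50 kb of one or inside a peak at one, the widest peak near one, the smaller of the marked and unmarked sides of each list and the 3 genes with the most similar layout. The marked partner genes, the unmarked germline genes, Kat6b and the genes with several TSS peaks were named after their values were seen. No p-value was computed, since 1 pooled list has no replicates. The overlap functions were checked on 200 simulated peaks placed at promoters, of which 200 were found. Alternatives changed the window, the isoforms, the minimum overlap and the minimum peak width. Python 3.11.15, numpy 2.4.6, scipy 1.17.1 and matplotlib 3.10.9 were used.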

Additional observations from a re-analysis of the deposited data

How the results depend on the processing

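Of 110 recomputed values for 26 results, 91 stayed close to the value given (counts, coverage and distances within 1.5-fold, the share of all genes within its interval), and 19 moved. The 2 marked promoters of BET genes and the 40 marked readers did not change under any of the 7 alternatives tried for them. The share of all genes marked moved from 43.6% to 44.6% for ±2 kb windows, 40.4% when the TSS itself had to lie in a peak, 41.7% with the longest isoform, 44.2% with all transcript types, 39.0% with peaks at least 1 kb wide and 42.2% with an overlap of at least 500 bp. Marked TSSs of Brd2 numbered 11 with all transcript types. Peaks near Brd2 numbered 3 within 100 kb, those near Brd3 4 when counted from the TSS, and those near Brdt 1 within 25 kb, 1 from the TSS and 1 after peaks under 1 kb were removed. The peak nearest to the Brdt TSS was then 105.6 kb away, and by midpoint the nearest peaks to Brd2 and Brd3 were 2.72 and 0.391 kb away. Within 25 kb of the TSS the covered share was 13.6% at Brd2 and 0% at Brdt, and it was 0% at Brdt with peaks at least 1 kb wide within 50 kb. The CpG ratio of Brdt was 0.743 in the window of 300 bases. These moves follow from the wider or narrower windows, from the use of midpoints, or from the peaks and transcripts left in. No paired analysis was possible because the list pools both control replicates, which also means that replicates could not be left out in turn.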

Other observations

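The order of the deposited list is not explained in the sources used here. The peak of Brd2 stood at line 110 of 22973 and the upstream peak of Brd3 at line 409, while the downstream peak of Brd3 stood at line 4186 and the 3 peaks around Brdt between lines 16187 and 20395. Near Brd3, the peaks at the promoters of Wdr5, Brd3os and Vav2 stood at lines 1599, 12061 and 16961. The peak in the body of Vav2 stood at line 4120. The widest peak near Brd3, 14254 bp with no protein-coding or lincRNA TSS within 1 kb, stood at line 6568, behind the narrower downstream promoter peak of Brd3.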
